A study of Mus musculus with 23 samples.

Results

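Retinas of P23H knock-in mice that received no injection were compared with wild-type (WT) retinas by small RNA sequencing. The mutant mice are heterozygous for a knock-in of P23H rhodopsin (P23H+/- KI), and the WT mice carry the strain label C57B. Both groups are labelled untreated and postnatal day 90. The comparison holds 7 of the 23 libraries of the series, 5 from uninjected P23H retinas and 2 from WT retinas, chosen by the titles of the libraries. The other libraries came from P23H mice of the same age given saline, the human rhodopsin gene or the mouse rhodopsin gene. Titles of the uninjected libraries share their leading number and end in L or R. They were read as eyes of 3 mice, which the labels do not state. Mouse 1 and mouse 3 gave a right and a left retina, and mouse 2 gave a left one. WT mouse 1 is a right and WT mouse 2 a left retina with different title numbers, and nothing in the labels says that they are separate animals. The p-values then measure the spread between sums per mouse, to which the injected P23H mice in the same fit also contribute. That spread may be technical in part. If the leading number is a cage, genotype and cage cannot be told apart.

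Rhodopsin is the light-sensing protein of rod photoreceptors. The P23H form misfolds in the endoplasmic reticulum, and rods of carriers degenerate, as in dominant retinitis pigmentosa. A microRNA (miRNA) is cut from a hairpin precursor whose 5p and 3p arms can each yield a mature strand, and the strand pairs with messenger RNAs mainly through its seed, bases 2 to 8. The retina is known for the miR-183, miR-96 and miR-182 cluster in photoreceptors, for miR-124 and miR-9 in neurons, for miR-204 and miR-211 in the pigment epithelium and glia, and for the miR-181 family in inner neurons. Because whole retinas were sequenced, fewer cells of a type and less miRNA per cell cannot be told apart.

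The deposited mature rows name a miRNA locus and no arm. The sequences below are the RefSeq mature strands (GRCm38.p6) of loci on which the results turn, with the seed in capitals. RefSeq symbols matched 260 of the 292 tested rows and 7 of the 8 that passed the threshold. The first set shows 2 loci whose rows rose, each with its relative of the same 3p seed, whose row did not pass.
mmu-miR-221-3p: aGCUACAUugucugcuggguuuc
mmu-miR-222-3p: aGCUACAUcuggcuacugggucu
mmu-miR-193b-3p: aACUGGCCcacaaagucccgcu
mmu-miR-193a-3p: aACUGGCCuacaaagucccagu
The second set shows the 5p arms of the loci that rose, whose reads the rows could also hold. The reference used here gave no 3p strand for mir-23b.
mmu-miR-221-5p: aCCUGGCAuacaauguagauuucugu
mmu-miR-193b-5p: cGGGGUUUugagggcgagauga
mmu-miR-23b-5p: gGGUUCCUggcaugcugauuu
The third set shows both arms of mir-335, which fell, and of the loci whose lower call came from 1 WT library.
mmu-miR-335-5p: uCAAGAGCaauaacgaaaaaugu
mmu-miR-335-3p: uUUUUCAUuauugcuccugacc
mmu-miR-381-5p: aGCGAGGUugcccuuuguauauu
mmu-miR-381-3p: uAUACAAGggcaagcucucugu
mmu-miR-351-5p: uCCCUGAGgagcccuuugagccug
mmu-miR-351-3p: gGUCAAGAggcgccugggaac
mmu-miR-488-5p: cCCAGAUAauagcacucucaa
mmu-miR-488-3p: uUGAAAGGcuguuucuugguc

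In RefSeq (GRCm38.p6) the mir-221 hairpin lies at chrX:19146294-19146388 on the minus strand, beside mir-222 at chrX:19146893-19146971. The mir-23b hairpin, at chr13:63300484-63300557 on the plus strand, lies in an intron of a protein-coding gene, and that of mir-193b lies at chr16:13449523-13449601 on the plus strand. The mir-335 hairpin (chr6:30741299-30741396, plus strand) sits in an intron of Mest, an imprinted gene. The mir-488 hairpin (chr1:158505625-158505733, plus strand) sits in an intron of Astn1, which encodes a neuronal adhesion protein. The mir-381 hairpin (chr12:109726822-109726896, plus strand) belongs to the imprinted Dlk1-Dio3 cluster, and the mir-351 strands (chrX:53053276-53053296 and chrX:53053315-53053338, minus strand) lie beside mir-503 and mir-322. These positions are those of the reference. The build the authors aligned to is not given in the sources used here.

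Libraries of the comparison held 6980992 to 16048954 reads of mature miRNA (median 9645844), and the mature rows added up to between 11.2% and 16.5% of them. Of 903 mature rows, 337 had at least 10 reads in at least 3 of the 7 libraries, and 566 did not. Among the 337, 45 jumped between a low and a high level from library to library and were set aside without regard to group, which left 292 rows for the test. As WT has 2 libraries, a row in which both stood apart from all others by 2 log2 units could be set aside too. A row in which 1 WT library stood apart was set aside only at 3.5. Levels are given as CPM, reads per 1000000 reads of mature miRNA after a TMM scaling factor per mouse. The factor was 0.68 for WT mouse 2 and 0.94 for WT mouse 1, against 1.10 to 1.18 for the uninjected mice, so the 2 groups also differed in scale. Leaving the factors out moved the median log2 difference of all rows from -0.18 to 0.33. The share of ribosomal RNA was 3.00% to 5.14% of aligned reads in the libraries of uninjected mouse 2 and mouse 3, and 0.201% to 0.395% in those of uninjected mouse 1 and WT. Every result below without the libraries rich in ribosomal RNA therefore has uninjected mouse 1 as the only uninjected mouse.

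The WT pair differed more from each other than any pair of uninjected mice did. The units were unlike, since each WT mouse is 1 library and uninjected mouse 1 and mouse 3 are sums of 2 eyes. Across the 292 rows the median absolute log2 difference was 0.68 between the WT mice. It was 0.51 between uninjected mouse 1 and mouse 2, 0.31 between mouse 1 and mouse 3, and 0.50 between mouse 2 and mouse 3. Between the eyes of uninjected mouse 1 it was 0.28, and between those of mouse 3 it was 0.48. WT mouse 1 lay 0.32 from uninjected mouse 1, closer than it lay to WT mouse 2. Of the 7 libraries, WT mouse 2 stood alone at the top of a row by at least 1 log2 unit in 17 rows and alone at the bottom in 11, and WT mouse 1 in 0 rows at either end. The library of uninjected mouse 2 stood alone at the bottom in 14 rows.

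The question of the comparison is which miRNAs differ in the retina with the rhodopsin mutation. Of 292 rows, 8 (2.74%) passed an adjusted p of 0.05, 3 higher (1.03%) and 5 lower (1.71%) in uninjected P23H than in WT (edgeR quasi-likelihood, Benjamini-Hochberg). mir-193b, mir-221 and mir-23b rose, and those that fell were mir-335, mir-3535, mir-381, mir-351 and mir-488. In 5 of the 8 both WT mice lay outside the range of all 13 P23H mice of the series. They did so in 27 of 292 rows (9.25%), below all in 12 (4.11%) and above all in 15 (5.14%). The 8 had been picked with the same WT values. The injected P23H mice share the WT controls with this comparison. Their counts entered the same fit and its estimate of the spread, and apart from that they are given as levels only. With only the uninjected and WT mice in the fit 0 rows passed, and the smallest adjusted p of edgeR was 0.219. No call was left after removing WT mouse 2 or any 1 uninjected mouse, and 47 rows passed without WT mouse 1. At an unadjusted p under 0.05 edgeR gave 25 rows without WT mouse 2 and 45 to 60 without 1 uninjected mouse.

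mir-221 belongs to a family with roles in vessels and in cell division. Its level was 18.0 and 8.65 CPM in WT mouse 1 and WT mouse 2. In the uninjected libraries it was 42.1 and 31.4 CPM in the right and left eye of mouse 1, 29.4 CPM in mouse 2, and 25.8 and 30.8 CPM in the right and left eye of mouse 3. Every uninjected library lay above both WT libraries, and the 10 injected P23H mice, at 27.8 to 41.7 CPM (median 37.0), did too. Per mouse the level was 31.5 ± 4.6 CPM (SD, n = 3) against 13.3 ± 6.6 (SD, n = 2), a fold of 2.37 (log2 1.25, SE 0.28, adjusted p = 0.0233). The row of mir-222, its neighbour on the X chromosome with the same 3p seed, was 2.63 and 4.42 CPM in WT. It was 4.06, 4.82, 4.49, 2.79 and 1.61 CPM in the uninjected libraries, in the same order as for mir-221. The groups overlapped, the left eye of mouse 3 lay below both WT values, and the log2 difference was 0.06 (SE 0.42, adjusted p = 0.937). Whether these neighbours differ from each other was not tested.

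mir-23b, of a cluster with mir-27b and mir-24-1 that is active in vessels and glia, was 8.78 and 4.32 CPM in WT. The uninjected libraries held 17.0 and 18.2 CPM in mouse 1, 16.2 in mouse 2 and 17.0 and 15.03 in mouse 3. They lay within a narrow band above both WT values, and the injected P23H mice reached from 9.39 to 18.8 CPM. The fold was 2.54 (log2 1.34, SE 0.32, adjusted p = 0.0268). mir-23a, the counterpart in the second cluster, had 7.68 and 12.05 CPM in WT and 13.9, 19.3, 17.6, 25.5 and 15.03 CPM in the uninjected libraries. The groups did not overlap, and the log2 difference of 0.87 (SE 0.37, adjusted p = 0.228) did not pass. The cluster mates mir-27b and mir-24-1 differed by -0.32 (SE 0.31) and -0.32 (SE 0.23), and mir-24-2 by 0.64 (SE 0.29, adjusted p = 0.28). The split of this group thus ran 3 rows higher and 3 lower, and without TMM factors all 6 were higher. Against WT mouse 1 alone all 6 were higher too (median 0.58), and against WT mouse 2 alone 3 were (median 0.06).

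mir-193b had 13 reads in WT mouse 1 and 1 read in WT mouse 2, which gives 1.43 and 0.092 CPM. The uninjected libraries held 4.91 and 5.79 CPM in mouse 1, 6.92 in mouse 2, and 9.93 and 3.22 in mouse 3. All lay above WT, although the eyes of mouse 3 differed more than the averages of the mice did. The fitted fold was 8.40 (log2 3.07, SE 0.69, adjusted p = 0.0233) on the 13 reads and 1 read of the WT mice. The row of its relative mir-193a, with the same 3p seed, stood at 0.658 CPM in WT mouse 1 and 12.5 CPM in WT mouse 2. In uninjected libraries it ranged from 0.243 to 2.58 CPM. The log2 difference of -2.90 (SE 0.84, adjusted p = 0.098) came from WT mouse 2, since WT mouse 1 lay among the uninjected libraries.

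Among the rows that fell, mir-3535 had the smallest difference and the smallest spread. It was 77.6 and 65.7 CPM in WT, 49.0 and 35.1 in uninjected mouse 1, 31.5 in mouse 2, and 43.6 and 35.9 in mouse 3. The groups did not overlap, and the injected P23H mice, at 34.5 to 52.6 CPM, lay below both WT mice too. Per mouse the level was 37.8 ± 5.6 CPM (SD, n = 3) against 71.6 ± 8.4 (SD, n = 2), a log2 difference of -0.92 (SE 0.21, adjusted p = 0.0233). Without TMM factors it was -0.44 (SE 0.25, adjusted p = 0.34) and did not pass.

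mir-335, made from an intron of Mest, was 255 CPM in WT mouse 1 and 766 in WT mouse 2. The uninjected libraries held 197 and 212 CPM in mouse 1, 113 in mouse 2, and 131 and 161 in mouse 3. All lay below WT mouse 1, and WT mouse 2 stood far above every other library. The log2 difference was -1.72 (SE 0.41, adjusted p = 0.0268). It was -0.59 (SE 0.38, adjusted p = 0.616) with WT mouse 1 as the only WT. The libraries rich in ribosomal RNA were the lowest of the 7 for mir-335 and for mir-488, and the part of that in the result was not tested. With uninjected mouse 1 as the only uninjected mouse and the rich libraries of the series left out, mir-335 differed by -1.25 (SE 0.57, adjusted p = 0.61).

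The calls of mir-381, mir-351 and mir-488 came from WT mouse 2 alone. mir-381 had 635 reads in that library and at most 55 in the other 22 libraries of the series. For mir-351 the values were 438 and at most 21 reads, and for mir-488 they were 280 and at most 22. As CPM, mir-381 stood at 2.30 in WT mouse 1 and 58.4 in WT mouse 2. The mir-351 row stood at 1.10 and 40.3 CPM, and that of mir-488 at 1.32 and 25.8. In uninjected libraries mir-381 ranged from 0.607 to 1.67 CPM, mir-351 from 0.107 to 1.56 and mir-488 from 0.215 to 1.57. WT mouse 1 thus lay within the uninjected range for mir-351 and mir-488 and above it for mir-381. The log2 differences of -4.71 (SE 0.89), -4.33 (SE 0.90) and -4.03 (SE 0.86) had an adjusted p of 0.0233 each.

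These jumps stayed under the limit by which rows were set aside. The largest gap between neighbouring libraries was 2.88 log2 units in mir-381, 3.40 in mir-351 and 2.50 in mir-488, and a library standing alone was removed at 3.5. When rows with any gap of at least 2 were set aside as well, a limit chosen after seeing the data, 5 of 279 rows passed. All 5 were among the 8, with mir-193b, mir-221 and mir-23b higher and mir-3535 and mir-335 lower.

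**Figure D1:**
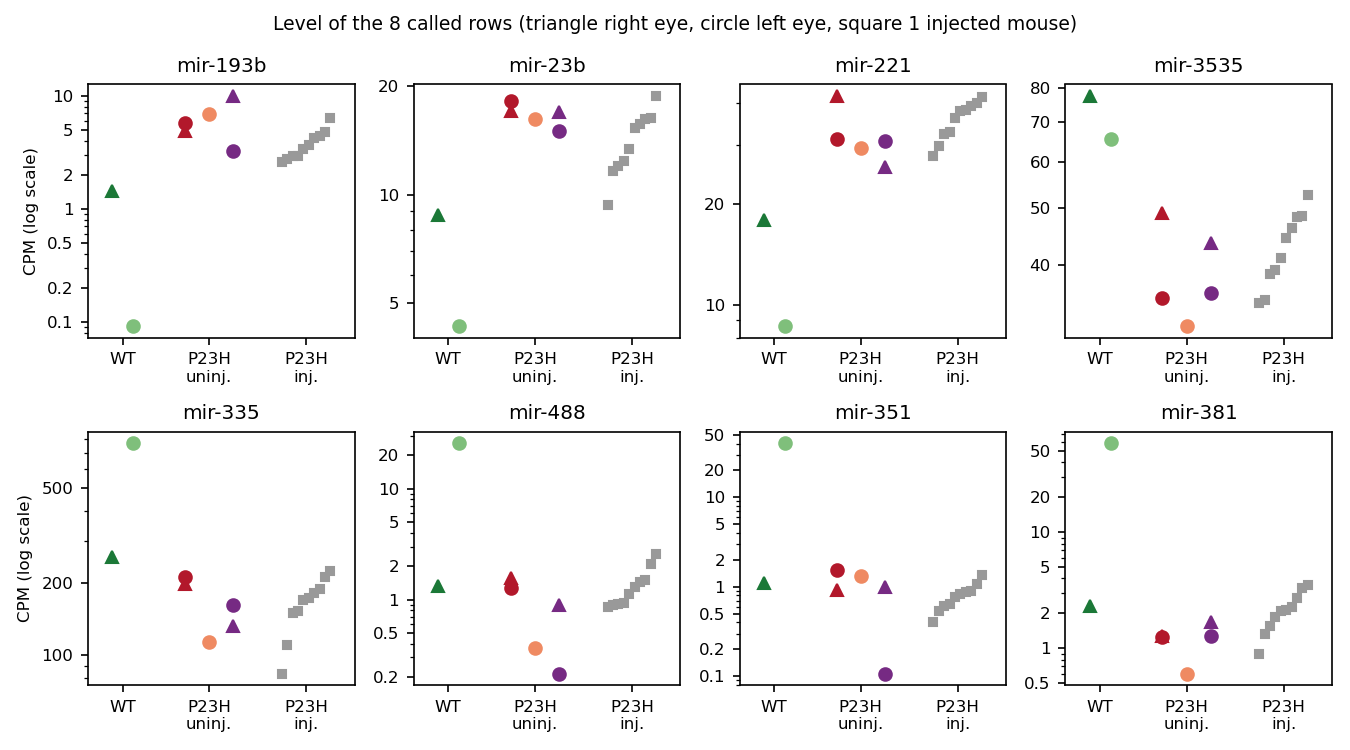
Level in CPM (log scale) of the 8 rows that passed. Green points are WT mouse 1 (dark) and WT mouse 2 (light), red, orange and purple points are uninjected mice 1, 2 and 3 (triangle right eye, circle left eye), and grey squares are the 10 injected P23H mice in order of level. For mir-381, mir-351 and mir-488 only WT mouse 2 stands apart, and in the other rows both WT mice lie outside the P23H points.

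Each WT mouse was also taken as the only WT, in fits that borrow the spread of the other mice. The log2 difference of mir-3535 was -0.90 (SE 0.22) with WT mouse 1 and -0.80 (SE 0.24) with WT mouse 2, the closest match among the 8. mir-221 gave 0.95 (SE 0.27) and 1.87 (SE 0.29), and mir-23b gave 1.06 (SE 0.33) and 1.94 (SE 0.36). mir-193b gave 2.27 (SE 0.59) and 5.97 (SE 0.85). For mir-381 the values were -0.88 (SE 0.63) and -5.64 (SE 0.51), for mir-488 they were -0.55 (SE 0.81) and -4.94 (SE 0.61), and for mir-351 they were 0.05 (SE 0.76) and -5.29 (SE 0.49). The sign was the same with either WT mouse in 7 of 8, rows that had been picked by a fit to these same WT mice. Over all rows 172 of 292 had the same sign with both WT mice and 120 had opposite signs.

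**Figure D2:**
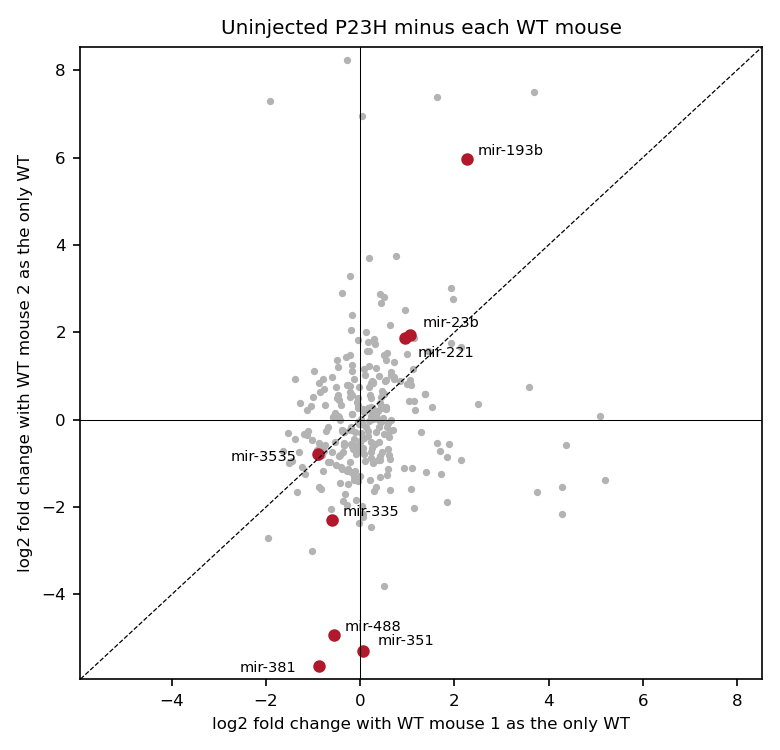
Log2 difference of uninjected P23H against WT mouse 1 alone (x axis) and against WT mouse 2 alone (y axis), 1 point for each of 292 rows. Rows that passed in the fit with both WT mice are red and named, and the dashed line marks equal values. mir-3535 lies by the line, while mir-351, mir-381 and mir-488 lie between -0.88 and 0.05 on the x axis and between -5.64 and -4.94 on the y axis.

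In 83 of 292 rows (28.4%) the 3 uninjected mice did not overlap with the WT mice, 39 higher (13.4%) and 44 lower (15.1%). Of the 8 rows that passed, 6 were among them, all but mir-351 and mir-488, though the same values had picked the 8. Without TMM factors the split was 70 higher and 7 lower. An unadjusted p under 0.05 was reached by 49 rows (16.8%), and the median standard error was 0.45. Fitted differences were above 0 in 123 rows (42.1%) and below 0 in 169 (57.9%).

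**Figure D3:**
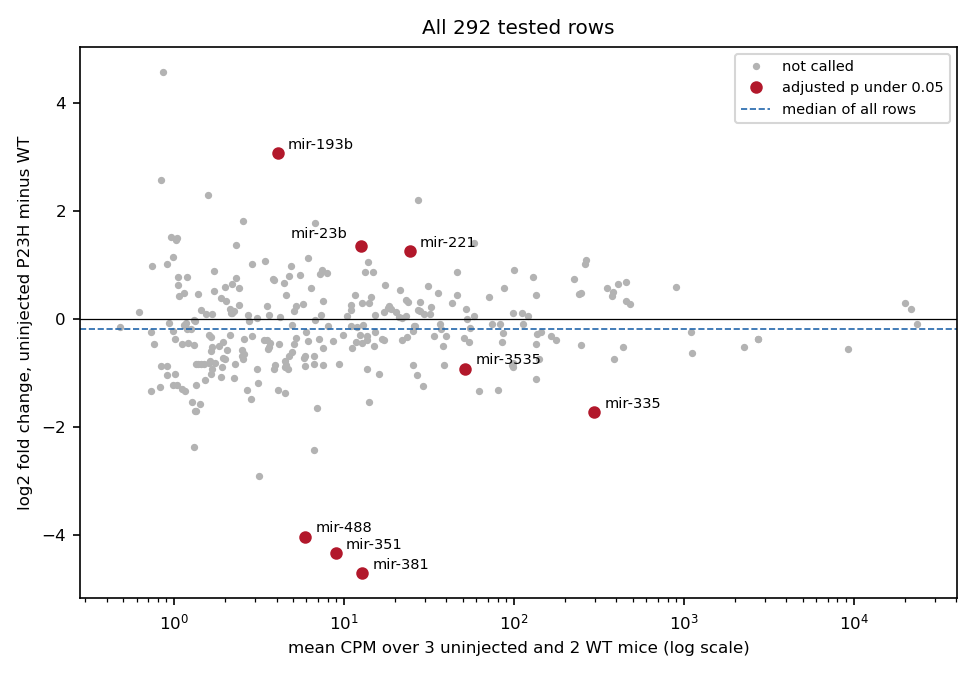
Log2 difference of uninjected P23H minus WT (y axis) against mean CPM over the 5 mice (log x axis) for the 292 tested rows. Red points passed an adjusted p of 0.05 and are named, and the dashed line is the median of all rows, -0.18.

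Below the threshold, 10 more rows of at least 10 CPM with the smallest p-values were higher. Of these, mir-204, mir-99b, mir-125b-1, mir-135a-2 and mir-23a stand in the list of miRNAs reported in Mueller glia, the radial support cells of the retina. mir-204, which is also abundant in the pigment epithelium, was 82.2 and 49.2 CPM in WT. It was 129 and 112 CPM in uninjected mouse 1, 99.0 in mouse 2, and 216 and 84.6 in mouse 3. Each uninjected library lay above both WT libraries, though the left eye of mouse 3 was only just above WT mouse 1. The log2 difference was 0.90 (SE 0.30, adjusted p = 0.14), and DESeq2 gave an adjusted p of 0.0478. Its relative mir-211 was 23.3 and 30.1 CPM in WT, and 26.2, 22.4, 14.5, 36.9 and 12.9 CPM in the uninjected libraries, with full overlap (log2 -0.33, SE 0.32, adjusted p = 0.565).

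mir-99b was 42.1 and 19.7 CPM in WT and 48.2, 53.8, 59.9, 78.3 and 38.6 in the uninjected libraries (log2 0.87, SE 0.30, adjusted p = 0.14). mir-135a-2 was 44.9 and 13.6 CPM in WT and 58.1, 44.8, 95.2, 104 and 67.9 CPM in the uninjected libraries (log2 1.41, SE 0.47, adjusted p = 0.14). In both rows 1 uninjected eye fell to or below the higher WT value, while the mice did not overlap. mir-125b-1, of a family shared by neurons and glia, was 31.1 and 26.7 CPM in WT and 43.5, 47.0, 36.4, 48.2 and 30.5 in the uninjected libraries (log2 0.48, SE 0.21, adjusted p = 0.241), with the left eye of mouse 3 just below WT mouse 1. Of the 10 tested rows of the Mueller glia list, 8 were higher and 2 lower, 0 passed, and the median was 0.44 beside -0.18 for all rows. The list kept 8 higher rows with either WT mouse left out. It had 7 without uninjected mouse 3, and 7 with the left eye only of uninjected mice. Without TMM factors 10 of 10 were higher (median 0.93, beside 0.33 for all rows). In 6 of the 10 rows the mice did not overlap upward, beside 13.4% of all rows. In 1, mir-100, they did not overlap downward, beside 15.1% of all rows. The lower rows were mir-100 (log2 -0.47, SE 0.40) and mir-9-1 (log2 -0.38, SE 0.31), and mir-135a-1 was among the rows set aside. The list was chosen with earlier results of these data known. Several of its members also belong to neurons or pigment epithelium.

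The other higher rows were mir-24-2, mir-214, mir-1843a, mir-455 and mir-205. mir-24-2 was 360 and 253 CPM in WT and 425, 403, 504, 618 and 413 in the uninjected libraries, without overlap. mir-214, known from mesenchymal cells, was 15.5 and 10.9 CPM in WT and between 17.1 and 28.4 CPM in the uninjected libraries (log2 0.62, SE 0.25, adjusted p = 0.223). mir-1843a was 31.6 and 15.9 CPM in WT and between 31.5 and 38.4 CPM in the uninjected libraries (log2 0.60, SE 0.26, adjusted p = 0.238). mir-455 was 14.5 and 2.39 CPM in WT and between 12.2 and 21.5 CPM in the uninjected libraries, so that WT mouse 1 overlapped (log2 1.06, SE 0.50, adjusted p = 0.286). mir-205, a miRNA of surface epithelium, was 8.56 and 9.29 CPM in WT and between 11.1 and 19.4 CPM in the uninjected libraries (log2 0.86, SE 0.41, adjusted p = 0.286).

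Of the 9 further lower rows named by p-value, 4 belong to the Dlk1-Dio3 cluster, which is expressed from the maternal chromosome and is active in neurons. mir-409 was 65.4 and 40.7 CPM in WT and 24.2, 39.5, 22.6, 36.9 and 30.4 CPM in the uninjected libraries. The groups did not overlap (log2 -0.85, SE 0.26, adjusted p = 0.11), and WT mouse 1 was the higher of the WT pair. mir-369 was 70.3 and 183 CPM in WT and between 29.6 and 66.6 in the uninjected libraries (log2 -1.32, SE 0.43, adjusted p = 0.135). mir-136 was 21.8 and 67.8 CPM against 10.8 to 31.3 (log2 -1.25, SE 0.43, adjusted p = 0.14), with WT mouse 1 among the uninjected libraries, and mir-376b was 27.2 and 41.8 CPM against 12.1 to 25.2 (log2 -0.85, SE 0.36, adjusted p = 0.235). In all 4 of these rows the library of uninjected mouse 2 was the lowest of the 7. Against WT mouse 1 alone the log2 difference was -0.36 for mir-369, -0.094 for mir-136 and -0.38 for mir-376b.

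Over the cluster 25 of 30 tested rows were lower and 5 higher, where 57.9% of all rows were lower. In the cluster 1 row passed (mir-381, from WT mouse 2), and the median was -0.38 beside -0.18 for all rows. Another 6 rows of the cluster had been set aside as jumping between levels. Among these only mir-665 split by group, and it was higher in the uninjected libraries. In 9 of the 30 rows the mice did not overlap downward, beside 15.1% of all rows. Taking WT mouse 1 alone gave 29 of 30 lower rows, and taking WT mouse 2 alone gave 15 of 30. Without TMM factors 14 of 30 were lower and the median was 0.04, beside 0.33 for all rows. Without uninjected mouse 2, 21 of 30 were lower (median -0.24), and without the libraries rich in ribosomal RNA 16 of 30 were (median -0.13).

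The remaining rows of that set were mir-98, mir-143, mir-30b, mir-191 and mir-96. mir-98, of the let-7 family, was 24.9 and 52.8 CPM in WT and between 13.9 and 24.3 CPM in the uninjected libraries, without overlap (log2 -1.04, SE 0.36, adjusted p = 0.14). mir-143, of smooth muscle and pericytes, was 8.45 CPM in WT mouse 1 and 37.3 CPM in WT mouse 2, with uninjected libraries at 6.01 to 9.11 CPM (log2 -1.53, SE 0.53, adjusted p = 0.14). mir-191 was 10.3 and 35.8 CPM in WT and 8.59 to 14.9 CPM in the uninjected libraries (log2 -1.01, SE 0.36, adjusted p = 0.145). For mir-143 and mir-191 the difference came from WT mouse 2, and WT mouse 1 lay among the uninjected libraries. mir-30b was 11.3 and 26.7 CPM in WT and 8.05 to 12.2 CPM in the uninjected libraries (log2 -0.92, SE 0.33, adjusted p = 0.145). WT mouse 1 lay among the uninjected libraries for mir-30b too, and against it alone the log2 difference was -0.037 for mir-30b and -0.26 for mir-98.

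The photoreceptor cluster was examined because rods are the cells that P23H rhodopsin damages. The rows of mir-183, mir-182 and mir-96 were 3 of 3 lower, and 0 passed. mir-183 was 789 and 233 CPM in WT, 510 and 357 CPM in uninjected mouse 1, 117 in mouse 2, and 390 and 339 in mouse 3 (log2 -0.74, SE 0.52, adjusted p = 0.437). The WT mice bracketed 4 of the 5 uninjected libraries, and uninjected mouse 2 lay below all. mir-182 was 246 and 154 CPM in WT and 149, 118, 36.9, 115 and 98.3 CPM in the uninjected libraries (log2 -1.11, SE 0.52, adjusted p = 0.286). All uninjected libraries lay below both WT libraries for mir-182, and mouse 2 stood apart. mir-96 was 130 and 64.0 CPM in WT and 73.8, 54.7, 14.7, 31.8 and 40.4 CPM in the uninjected libraries (log2 -1.33, SE 0.54, adjusted p = 0.223), where the right eye of mouse 1 lay above WT mouse 2. The median of the cluster was -1.11, beside -0.18 for all rows, and -0.73 without uninjected mouse 2. It was -0.48, beside -0.06 for all rows, without the libraries rich in ribosomal RNA, which leaves uninjected mouse 1 alone. Against WT mouse 2 alone, 1 of the 3 rows was higher.

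In the neuronal rows uninjected mouse 2 was again the lowest. mir-124-1 was 174 and 90.9 CPM in WT and 118, 95.2, 27.6, 109 and 75.5 CPM in the uninjected libraries (log2 -0.81, SE 0.44, adjusted p = 0.346). mir-9-1 was 3343 and 2966 CPM in WT and 3301, 3310, 1340, 2836 and 2419 CPM in the uninjected libraries (log2 -0.38, SE 0.31, adjusted p = 0.51). In both rows mouse 1 lay between the WT values. The 6 rows of miR-124 and miR-9, whose copies can share reads, had a median of -0.66 and 6 of 6 lower, or 4 of 6 without TMM factors, and 0 of them passed. The median was -0.33 without uninjected mouse 2 and -0.31 against WT mouse 2 alone. Without the libraries rich in ribosomal RNA, which leaves uninjected mouse 1 alone, it was -0.11 with 4 of 6 lower, beside -0.06 for all rows. mir-132 and mir-212, which neuronal activity induces, differed by -0.42 (SE 0.36) and -0.39 (SE 0.36), or by a median of 0.10 without TMM factors. mir-132 was 90.2 and 112 CPM in WT and 99.6, 86.2, 33.5, 114 and 84.0 CPM in the uninjected libraries, where only mouse 2 lay clearly lower.

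In the miR-181 family of inner retinal neurons 3 of 5 tested rows were higher and 2 lower, 0 passed, and the median was 0.29. mir-181a-1 was 188 and 118 CPM in WT and between 74.7 and 167 CPM in the uninjected libraries (log2 -0.28, SE 0.31, adjusted p = 0.605). The family median was -0.22 against WT mouse 1 alone and 0.94 against WT mouse 2 alone. None of the 11 rows of miR-204, miR-211, miR-9, miR-124 and the miR-183 cluster had 0 reads in any library of the comparison. These rows had passed the filter on counts, so this does not measure how much retinal RNA a library held.

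Widely expressed families showed no row past the threshold, and their directions moved with the WT mouse and the scale. In the let-7 family 3 of 11 rows were higher and 8 lower (median -0.23), with 8 higher without TMM factors, 7 without the libraries rich in ribosomal RNA and 6 against WT mouse 1 alone. In the miR-30 family 1 of 6 was higher and 5 were lower (median -0.51, or 0.06 without TMM factors). Against WT mouse 1 alone 4 of 6 were higher (median 0.16), and against WT mouse 2 alone 5 were lower and 3 passed (median -0.84). The miR-29 family had 2 of 4 higher (median -0.13), the miR-26 family 1 of 3 (median -0.02) and the miR-17/92 clusters 6 of 11 (median 0.03). Without TMM factors these became 4 of 4, 3 of 3 and 8 of 11, and against WT mouse 1 alone 2 of 4, 3 of 3 and 3 of 11. In the miR-34 family, linked to p53, 2 of 3 tested rows were higher (median 0.72). The median was 1.52 against WT mouse 1 alone, 0.28 against WT mouse 2 alone, and -0.21 with 1 of 3 higher without the libraries rich in ribosomal RNA. There mir-34b was 0.658 and 0.276 CPM in WT and between 0.668 and 3.28 CPM in the uninjected libraries (log2 2.29, SE 0.68, adjusted p = 0.0997). In the X-linked cluster of mir-322 and mir-351 all 4 tested rows were fitted below 0, or 2 of 4 without TMM factors and 1 of 4 against WT mouse 1 alone, and mir-351 passed, from WT mouse 2. There mir-322 was 52.3 and 53.9 CPM in WT and between 42.8 and 68.4 CPM in the uninjected libraries.

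**Figure D4:**
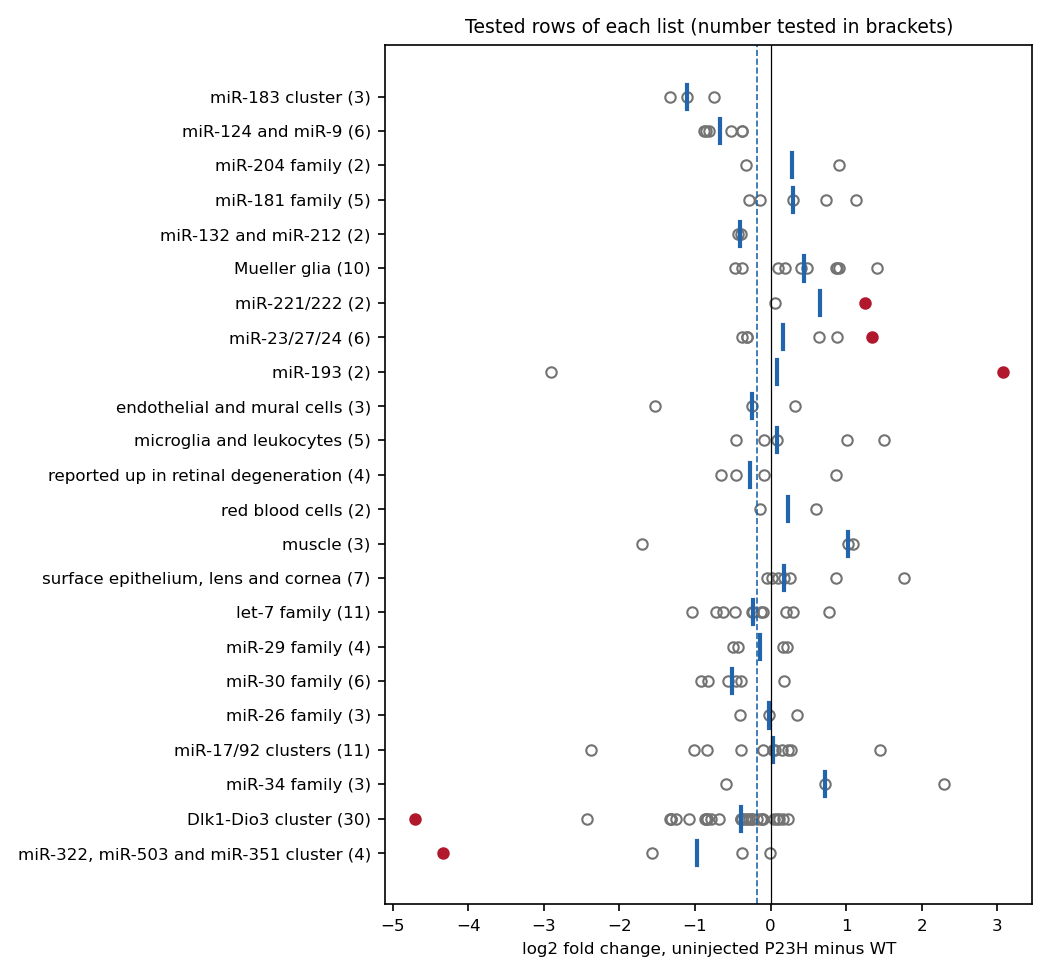
Log2 difference of uninjected P23H minus WT for the tested rows of each list, 1 circle for each row, with red filled circles for rows past an adjusted p of 0.05. Short blue bars are list medians, the dashed blue line is the median of all 292 rows (-0.18), and some rows belong to more than 1 list. The miR-183 rows lie left of the dashed line and most Mueller glia rows lie right of it.

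Markers of other cells were set beside these results. For leukocytes and microglia, 3 of 5 tested rows were higher and 0 passed (median 0.09), and the summed level ran from 70.6 to 73.5 CPM in WT and from 61.7 to 86.0 CPM in the uninjected libraries. mir-142a, the leukocyte marker, was 38.4 and 38.1 CPM in WT and between 27.6 and 41.9 CPM in the uninjected libraries (log2 -0.09, SE 0.33, adjusted p = 0.89). mir-21a, a miRNA of reactive glia and other stressed cells, was 1.54 and 5.06 CPM in WT and between 1.70 and 2.79 CPM in the uninjected libraries, on 14 to 55 reads per library (log2 -0.66, SE 0.54, adjusted p = 0.513). The sign of mir-142a changed with the scaling, and 5 of 5 rows of the list were higher without TMM factors or against WT mouse 1 alone. Of the list reported up in retinal degeneration, 4 of 8 loci could be tested, 1 was higher and 3 lower, and 0 passed (median -0.27). Against WT mouse 1 alone 4 of 4 were higher (median 0.50), and without TMM factors 3 of 4 were (median 0.28). That list lacked mir-146a, mir-155 and both mir-1a rows, which jumped between levels.

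For vessels, 1 of 3 tested rows was higher and 2 lower (median -0.24), while 3 of 3 were higher against WT mouse 1 alone (median 0.06) and 2 of 3 without TMM factors (median 0.29). mir-126a of endothelium was 1148 and 1274 CPM in WT and between 670 and 1429 CPM in the uninjected libraries, and mir-145a of mural cells was 383 and 407 CPM against 396 to 674. In both rows the groups overlapped, and the part of vessel cells in the mir-221, mir-23b and mir-143 results was not tested. Red cell miRNA varied widely within the groups. mir-451a was 1020 and 346 CPM in WT and 384, 161, 1424, 891 and 1894 CPM in the uninjected libraries (log2 0.60, SE 1.03, adjusted p = 0.749).

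The muscle rows mir-133a-1 and mir-133a-2, near-identical copies, were lowest in WT mouse 2 and uninjected mouse 1. mir-133a-1 was 273 and 51.5 CPM in WT and 96.6, 118, 478, 449 and 360 CPM in the uninjected libraries (log2 1.02, SE 0.94, adjusted p = 0.544). Of the 3 tested muscle rows 2 were higher (median 1.02), and 0 were without the libraries rich in ribosomal RNA (median -0.48). In the list of surface epithelium, lens and cornea 6 of 7 rows were higher, 0 passed, and the median was 0.17, with 4 of 7 higher against WT mouse 2 alone. Its member mir-31 was 2.74 and 2.76 CPM in WT, 3.92 and 3.86 CPM in uninjected mouse 1, and 12.8, 12.4 and 11.2 CPM in the libraries of mouse 2 and mouse 3 (log2 1.77, SE 0.64, adjusted p = 0.145). Those 3 libraries are the ones with 3.00% to 5.14% ribosomal RNA. Over all 292 rows they stood above the other 4 libraries in 19 rows and below them in 20, and the part of this in the result was not tested.

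The 45 rows set aside show how far single libraries could jump. Their upper level was taken in 28 rows by WT mouse 1 and in 38 by WT mouse 2. In the uninjected libraries the number ran from 20 in the left eye of mouse 3 to 32 in mouse 2. The eyes of 1 mouse sat at different levels in 19 rows for mouse 1 and in 14 rows for mouse 3, and the WT libraries did in 12. For the muscle locus mir-1a-2 the right eye of uninjected mouse 3 had 250485 reads and the left eye 2. For mir-146a, a miRNA of inflammation, the right eye of uninjected mouse 1 had 3 reads and the other 6 libraries between 2607 and 5165.

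The split matched the groups in 2 of the 45 rows. mir-217 had 192 and 378 reads in WT and 1 to 12 in the uninjected libraries. mir-665, of the Dlk1-Dio3 cluster, had 1 and 10 reads in WT and 45 to 102 in the uninjected ones, and it was the only row to pass when the rows that jump were kept in the fit. mir-5100 followed the libraries rich in ribosomal RNA. It had 0 reads in WT and in both eyes of uninjected mouse 1, and 78, 65 and 66 reads in the libraries of mouse 2 and mouse 3. These rows were chosen after their values were seen.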

How the data were processed

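The authors deposited a matrix of raw counts, 1 row for each miRNA locus and class of read, and an alignment table with read counts by class. Per the submitters' processing notes DESeq2 was used, with no version. No aligner, annotation or build is given in the sources used here. All columns were used (0 left out). Retinas were frozen, RNA was taken with Trizol and libraries came from a NEXT Flex small RNA kit, per the labels' protocols.

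Mature rows were kept where 3 or more of the 7 libraries held 10 or more counts. Rows were called two-level if some library of the 23 reached 30 counts and their sorted log2(CPM + 0.5) values, without TMM, had a gap of 3.5 or more. A gap of 2 sufficed where both sides held 2 or more libraries. Eyes of 1 mouse were summed. All 15 mice (5 groups) entered 1 fit in edgeR 4.0.16 (R 4.3.3, robust quasi-likelihood), with mature miRNA reads as library size and TMM factors, and p-values were adjusted over 292 rows by Benjamini-Hochberg at 0.05. The fit was tested on simulated data. A fit with 1 WT mouse assumes that it varies like the other groups. Eyes were scaled by the factor of their mouse. The named rows are those past the threshold, up to 12 higher and 12 lower rows with the smallest p and a mean of at least 10 CPM, and 11 retinal, glial and immune rows. Relatives, list members and set-aside rows were named beside them after their values were seen. The members and lists were chosen with earlier results of these data known. Alternatives were each mouse left out, DESeq2 1.42.0, the scale, the filters, and the libraries and mice in the fit. No list was tested as a set.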

Additional observations from a re-analysis of the deposited data

How the results depend on the processing

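The 3 higher and 5 lower rows became 0 and 0 with only the uninjected and WT mice in the fit, without the libraries rich in ribosomal RNA (1 uninjected mouse left), and without both libraries lowest in retinal miRNAs, an alternative added after seeing the data. Unadjusted p was under 0.05 in 26, 21 and 46 rows there (edgeR). They became 5 higher and 7 lower with DESeq2, 4 and 3 with mature miRNA reads and no TMM, 1 and 3 with total reads, 3 and 8 with no filter on low counts (838 rows), 1 and 0 with two-level rows kept, 2 and 4 with the left eye only of uninjected mice, and 3 and 2 with every gap of 2 set aside, also added. Leaving out 1 mouse gave 0 to 23 higher and 0 to 24 lower rows, the top values without WT mouse 1. The libraries left out as lowest in retinal miRNAs were that of uninjected mouse 2 and an eye of an injected mouse. Within this comparison that alternative thus repeats leaving out uninjected mouse 2. With no filter 146 of 838 rows were without overlap, beside 83 of 292 in the main fit, with the same mice. Among 292 rows the 83 became 164 without the libraries rich in ribosomal RNA, and 109 to 214 with 1 mouse left out (173 without WT mouse 2). Fewer mice to overlap raise the counts among 292 rows by construction, and other causes were not tested.

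Of 533 values of 36 named rows, 516 kept their sign. Without WT mouse 2 the sign turned for mir-351 (0.052), mir-143 (0.057), mir-191 (0.29), mir-142a (0.044) and mir-21a (0.57). Without WT mouse 1 it turned for mir-183 (0.39) and mir-181a-1 (0.10). With no TMM it turned for mir-9-1 (0.10), mir-211 (0.20), mir-181a-1 (0.16), mir-132 (0.10) and mir-142a (0.42). Without the libraries rich in ribosomal RNA it turned for mir-9-1 (0.16) and mir-181a-1 (0.14). mir-142a also turned with total reads (0.011), no filter (0.18) and only these groups in the fit (0.055). Each of the 8 rows that passed lost its call under at least 8 alternatives, and the adjusted p of mir-221 ran from 0.000529 to 0.34. No paired analysis was possible because the WT titles share no mouse with the uninjected titles. With few WT reads, as for mir-193b, depth limits the fold.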
